A study of Mus musculus with 20 samples.

Results

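The genes described here are the initiation and elongation factors of translation in 20 single blood stem and progenitor cells of mouse bone marrow. They were taken by symbol: every protein-coding gene whose name begins with Eif or Eef and that had a read in at least 3 of the 20 cells. Of 68 protein-coding Eif and Eef genes in the files, 62 met the rule, out of 36639 genes with a symbol. The 6 identifiers of other gene types with such symbols, pseudogenes among them, were left out.

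Each sample was 1 cell of strain C57BL/6J, profiled with Quartz-Seq, which reverse-transcribes polyadenylated RNA and amplifies the product by PCR. Both sorts took cells without lineage markers that carried cKit. From these, 9 cells had CD150 and lacked CD48 (CD150+CD48- cells, with codes in A and B), a phenotype that enriches blood stem cells, and 11 lacked CD150, with no CD48 gate named (CD150- cells, with codes in C and D). All carried spiked ERCC RNA from the lysis buffer, and no animal, age, treatment or culture was named. Each group therefore counted as 1 sample, no test between them was made, and differences have no replicate error. The letters occur in 1 group each, so whatever they mark cannot be told apart from the sort.

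Initiation begins when eIF2 brings the initiator tRNA to the small ribosomal subunit and eIF4F, made of the cap-binding eIF4E, the scaffold eIF4G and the helicase eIF4A, recruits the mRNA. The eIF3 complex bridges subunit and mRNA, and eIF1, eIF1A, eIF5 and eIF5B act in start codon choice and subunit joining. eIF2B recharges eIF2 with GTP, a step that stress kinases block by phosphorylating eIF2alpha, and the 4E-binding proteins hold back eIF4E until mTORC1 phosphorylates them. In elongation eEF1A delivers aminoacyl-tRNA and eEF2 moves the ribosome along. Blood stem cells are known for a low rate of protein synthesis compared with the progenitors that they give rise to, a rate that these mRNA counts do not measure.

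Many mRNAs of the translation machinery begin with a tract of pyrimidines next to the cap, through which mTORC1 acts on their translation, and their promoters often hold sites of ETS factors and of MYC. The windows below, from 30 bases before to 20 bases after the RefSeq start on GRCm38.p6, are shown because they carry such letters at or near the start of genes whose values are given further on. They run 5′ to 3′ along the gene's strand, and capitals mark the motif named. The tract of Eef1akmt2 opens 10 bases before the start and ends before it, so it lies outside an mRNA that begins there. With the pyrimidine tract in capitals:
Eef1a1 (chr9:78481705-78481754, minus strand): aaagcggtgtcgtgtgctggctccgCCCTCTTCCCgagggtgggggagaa
Eif2s3x (chrX:94212632-94212681, minus strand): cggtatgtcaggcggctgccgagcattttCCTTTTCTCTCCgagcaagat
Eif2ak4 (chr2:118389082-118389131, plus strand): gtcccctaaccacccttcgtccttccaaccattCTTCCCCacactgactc
Eef1akmt2 (chr7:132852628-132852677, minus strand): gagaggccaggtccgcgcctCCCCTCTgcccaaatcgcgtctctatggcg
With the ETS letters CCGGAAG:
Eef1b2 (chr1:63176801-63176850, plus strand): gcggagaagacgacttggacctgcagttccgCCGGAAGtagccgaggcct
Eif2b4 (chr5:31193120-31193169, minus strand): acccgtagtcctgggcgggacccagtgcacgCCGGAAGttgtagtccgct
Eif4e2 (chr1:87213881-87213930, plus strand): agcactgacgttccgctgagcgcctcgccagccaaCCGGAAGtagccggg
With the cyclic AMP response element TGACGTCA and the E-box CACGTG:
Eef2 (chr10:81176601-81176650, plus strand): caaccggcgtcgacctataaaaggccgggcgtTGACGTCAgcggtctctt
Eif1b (chr9:120492576-120492625, plus strand): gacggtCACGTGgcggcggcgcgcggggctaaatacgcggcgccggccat

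RefSeq promoter windows, which reach from 250 bases before to 50 after a start, were at hand for 49 of the 62 genes. Counting either strand and any start of a gene, 16 of the 49 (32.7%) held CCGGAAG, against 9.93% of all 27025 genes in the table. CACGTG stood in 11 of 49 (22.4%) against 8.09%, and TGACGTCA in 1 of 49 (2.04%), Eef2, against 2.03%. A sense-strand run of at least 7 pyrimidines that opens with C within 10 bases of the start was found in 11 of 49 (22.4%) against 14.1%. The run may open on either side of the start, so the count includes runs that lie before the mRNA. E-box and ETS letters were both present in Eif1b and Eif5a, and a pyrimidine tract can overlap ETS letters of the other strand, as in Eif4enif1. By the fold between the groups described below, CACGTG was in 1 of 15 genes lower in CD150+CD48- cells, in 0 of 5 higher ones and in 10 of 29 that passed neither mark. In the same order CCGGAAG was in 4, 0 and 12 genes, the pyrimidine run in 2, 2 and 7, and TGACGTCA in 0, 0 and 1. These are matches of letters in a window and not binding sites. The background holds genes with or without reads in these cells, while the 49 were kept only if read in at least 3 cells. Shares among only the genes read here were not counted.

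Depth was 660007 (A10) to 3722713 (B9) gene reads for the CD150+CD48- sort, against 996440 (D8) to 5776125 for the CD150- sort. Of the gate genes, Kit was read in all 20 cells, Slamf1, which encodes CD150, in 3 of 9 and 0 of 11, and Cd48 in 1 cell, B3, which had been sorted as lacking CD48. The 3 cells A10, A11 and B4 stood apart, with 80.2%, 66.2% and 46.3% of reads unaligned, against 2.49% to 35.7% in the other 17. Marker lists split the CD150- cells. A list of 26 erythroid genes, of which 24 passed the level filter and 24 of those were lower in CD150+CD48- cells, took 1.07% to 2.40% of gene reads in C6, C9, C10, C12, D4, D5 and D8. It took 0.0384% to 0.311% in D3, D9, D11 and D12 and 0.0430% to 0.337% in CD150+CD48- cells. A list of G2/M genes took 0.356% to 0.806%, 0.000117% to 0.0249% and 0% to 0.151% in the same order. A list of 25 stem cell genes went the other way, with 21 of its 24 genes past the filter higher in CD150+CD48- cells and shares of 0.0132% to 0.0582% for the 7 cells, 0.612% to 1.03% for the remaining 4 and 0.348% to 1.23% for CD150+CD48- cells. Of 10 megakaryocyte genes past the filter 8 were higher in that sort, and the list's share was 0.0497% to 0.377% there and at most 0.0697% in CD150- cells. Neutrophil and monocyte genes reached at most 0.126% and lymphoid genes at most 0.0646% in any cell. Below, the 7 are called the erythroid-rich CD150- cells. They were picked by the erythroid list at 0.5% of gene reads, and their part in each difference between the sorts was not tested. Values for them are ranges that describe single cells.

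Summed per cell, the 62 genes had a slightly smaller part of the transcriptome in CD150+CD48- cells. Their sum made up 1.81% (A10) to 3.42% (B3) of gene reads there, with a mean of 2.55% ± 0.543 (SD over 9 cells), and 2.32% (D9) to 3.82% (D8) in CD150- cells, with a mean of 2.95% ± 0.469 (SD over 11 cells). The 2 ranges overlapped along most of their length. Within the CD150- sort the erythroid-rich cells had 2.84% to 3.82%, all above the 2.32% to 2.63% of D3, D9, D11 and D12. The difference of the means was -0.40 percentage points, and -0.22 with A10, A11 and B4 left out.

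Scaled to the spike-ins, as reads of the 62 genes per ERCC read, the split within the CD150- sort was far wider. The erythroid-rich cells had 3.28 (C6) to 9.63 (D8), and each lay above every one of the 13 other cells. CD150+CD48- cells had 0.662 (A3) to 2.47 (B9). The other 4 CD150- cells had 0.315 in D3, 0.638 in D11, 0.835 in D9 and 1.10 in D12, so D3 and D11 lay below all CD150+CD48- cells and the other 2 inside their range. All gene reads per ERCC read were also highest in the 7 cells, at 109 to 302 in the 7 cells, 12.7 to 43.8 in the 4 and 22.3 to 109 in CD150+CD48- cells. The log2 ratio of the group means of the summed factors was -1.44, and -1.43 without Eef1a1.

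**Figure D1:**
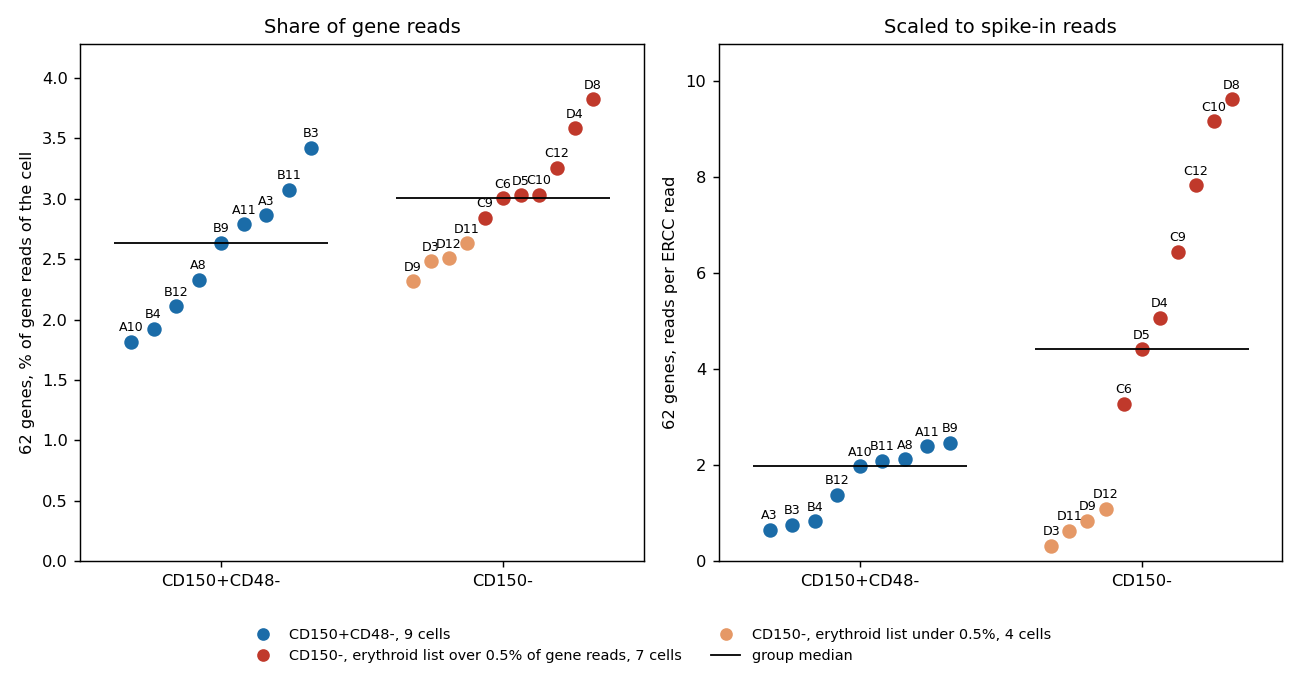
Summed reads of the 62 factor genes in each cell, as percent of the cell's gene reads (left) and per ERCC spike-in read (right), with 1 point per cell and a line at each group's median. The 7 erythroid-rich CD150- cells (red) lie at 2.84% or more of gene reads and at 3.28 or more per ERCC read, and the other CD150- cells (orange) lie among the CD150+CD48- cells (blue) or, for D3 and D11 per ERCC read, below them.

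Levels of single genes were compared after each cell was thinned to 660007 gene reads, the lowest total. Thinned reads were summed per group and given as CPM, reads-per-million on gene reads, where 1 read in 1 cell is 1.52 CPM of that cell. Of the 62 genes, 61 had at least 10 thinned reads and a read in at least 3 cells, as did 11346 genes in all. Eif3j2, with 0 reads in CD150+CD48- and 8 in CD150- cells, did not. A log2 fold is CD150+CD48- over CD150- of CPM + 1, and intervals cover counting error of reads only, which for PCR copies is too narrow. The mark used below for higher or lower is a log2 fold past 1 in either direction, which is a size and not a test.

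Most factors were abundant genes found in most cells, and more of them lay below than above. At 100 CPM or more over all cells lay 41 of the 61, and 2594 of all 11346 genes. A read in all 20 cells at equal depth was seen for 21 of 61 (34.4%), against a background of 5.35% of all genes past the filter. The 21 were 5 genes of start codon selection, 6 of eIF3, 5 of eIF4, 4 elongation factors and Eif5a, and none of eIF2B, the eIF2alpha kinases, the eIF4E inhibitors or the modifying enzymes. By direction, 43 of 61 (70.5%) had a lower level in the CD150+CD48- sort. The median log2 fold was -0.44, against 53.1% lower and a median of -0.10 over all genes. The mark was passed downward by 19 of 61 (31.1%), against a background of 27.1%, and upward by 6 of 61 (9.84%), against 21.8%. The downward share was thus near the background and the upward share below it, while 36 of 61 lay between the marks. The CPM of the 2 groups' cells overlapped for all 61, against a background of 0.00881% of genes, 1 in all, without overlap.

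The shares past the mark went with level. Of the 41 genes at 100 CPM or more, 9 passed the mark downward (22.0%, against 17.7% of all genes at that level) and 2 upward (4.88% against 17.1%), with a median of -0.33. Of the 19 between 10 and 100 CPM, 10 passed downward (52.6% against 30.1%) and 3 upward (15.8% against 24.9%), with a median of -1.11, and the 1 gene under 10 CPM, Eif2ak3, passed upward. Cells with a read made up 74.9% of CD150+CD48- and 84.8% of CD150- cells on average over the 61 genes, a difference of -9.94 percentage points that was near the -10.6 over all genes. Whichever single cell was left out, 15 of the 19 lower genes stayed past the mark (78.9%, against 64.6% of all genes past it), as did 3 of the 6 higher ones, against 44.2% of all higher genes.

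Between-group values move with the scale. On reads per ERCC read the median of all genes shifted from -0.10 to -0.93, and that of the factors to -1.66, with 43 of 61 past the mark downward (48.4% of all genes) and 2 upward (15.3%). The mean of log2 levels over cells gave medians of -0.95 for the factors and -0.49 for all genes. The 2 genes still past the mark upward on the spike-in scale were Eef1akmt2 and Eif4e3. For both, A10 and A11, cells with over 40% of reads unaligned, held many of the CD150+CD48- reads. Their folds without those cells together are not given here.

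**Figure D2:**
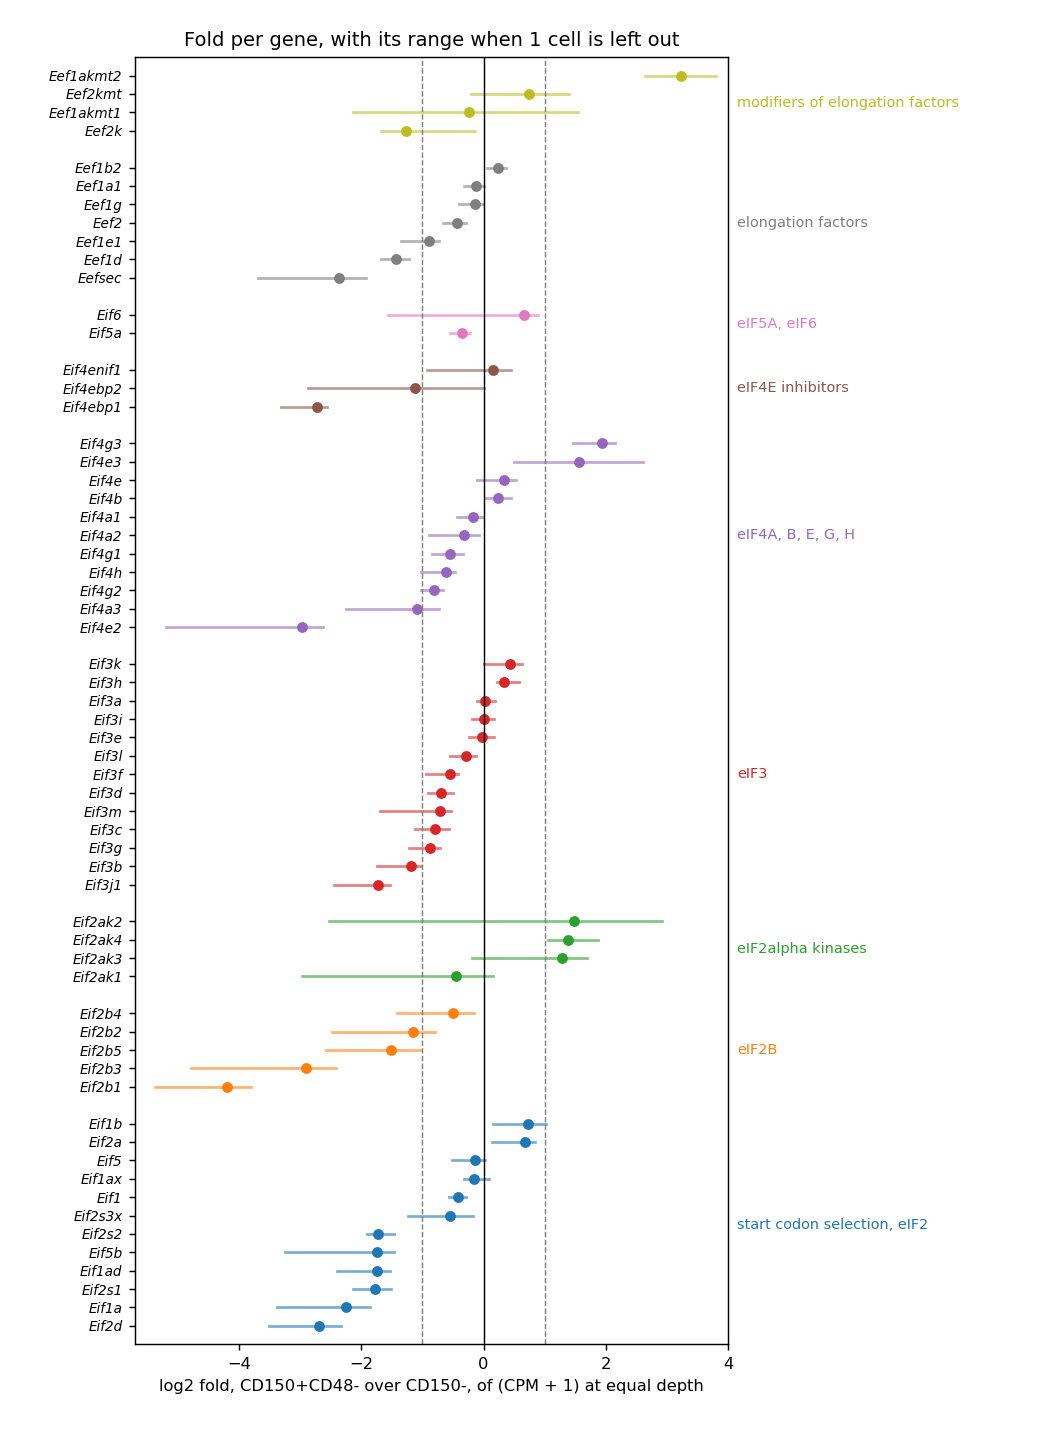
Log2 fold of CPM + 1 at equal depth, CD150+CD48- over CD150-, for the 61 genes past the filter, grouped by role. Points are values with all 20 cells, bars the lowest and highest value when any 1 cell was left out, and dashed lines the mark of 1 in each direction; 19 points lie at or below -1 and 6 at or above 1.

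The 3 subunits of eIF2, which carries the initiator tRNA, were all lower in CD150+CD48- cells. Eif2s1 (ENSMUSG00000021116, chromosome 12, 78861819 to 78887010, GRCm38), the alpha subunit that stress kinases phosphorylate, ranged over 0 to 304 CPM (median 85.0) in CD150+CD48- cells and 0 to 999 CPM (median 343) in CD150- cells. The erythroid-rich cells held 248 to 626 CPM, D11 alone 999 and D12 12.7, and D3 and D9 had no read. Of the other sort only A3, at 304 CPM, lay inside the range of the erythroid-rich cells. At group level Eif2s1 had 103 CPM against 356 CPM, 3.45-fold (95% CI 3.16 to 3.77) lower, and its log2 fold of -1.78 became -2.14 without A3 and -1.51 without D11. Eif2s2, the beta subunit, was 3.34-fold (95% CI 3.04 to 3.66) lower, with reads in all 20 cells. Its 7 erythroid-rich cells, like those of Eif2b1 and Eif4ebp1, were all above the 9 CD150+CD48- cells, the only 3 genes of the 61 with that order. How many of all genes had that order was not counted, so it is not read as particular to the factors.

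Eif2s3x, the X-linked gamma subunit, had 3.78 to 97.2 CPM (median 10.6) in CD150+CD48- cells and 2.60 to 131 CPM (median 31.5) in CD150- cells. It was read in every cell, and the groups overlapped along nearly their whole range. Per kilobase of exon it had 9.68 CPM over all cells, against 48.9 for Eif2s1 and 32.2 for Eif2s2. The group values were 29.1 CPM (95% CI 24.9 to 33.8) against 43.3 CPM (95% CI 38.6 to 48.3), a log2 fold of -0.55 that was -1.23 without B9 and -0.18 without C9. Of its transcript's 50-base stretches 34.6% also occur in other annotated genes, so that reads with several alignments, which were not counted, may lower its level by an unknown amount. Its Y-linked homolog Eif2s3y had no read in any cell, which allows up to 0.0546 CPM over the 20 cells. The Y genes Kdm5d and Uty had none either, Ddx3y had 3 reads in 2 cells, and Xist was read in 17 of 20 cells with a median of 47.3 CPM.

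Of the 12 genes past the filter listed around start codon selection, Eif1ad by its symbol, 10 were lower, with a median log2 fold of -1.14. The mark was passed downward by 6, Eif1ad at -1.75 among them, and upward by none. Of all genes 53.1% were lower and 27.1% passed the mark downward. Eif5, the GTPase activator that triggers release of eIF2, had the most reads of the 12, at 1.08 to 1924 CPM (median 572) against 191 to 1387 CPM (median 709). The groups overlapped, and their levels of 685 and 753 CPM gave a log2 fold of -0.14, or -0.51 without A11 and 0.03 without A3, a cell almost empty of it at 1.08 CPM. Eif2d, a factor for non-canonical initiation and ribosome recycling, had 0 to 116 CPM (median 0) against 0.298 to 496 CPM (median 109). Its reads lay in 4 of 9 and 9 of 11 cells at equal depth, with 40.9 to 496 CPM in the erythroid-rich cells, and it was 6.65-fold (95% CI 5.61 to 7.92) lower, with log2 folds of -3.51 to -2.34 when a cell was left out.

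Eif1a and Eif1ax encode near-identical forms of eIF1A, which helps the small subunit scan for the start codon, and differed in the size of the fold. Eif1a was 4.96-fold (95% CI 4.09 to 6.04) lower, at 0 to 104 CPM (median 0.384) against 0 to 312 CPM (median 70.2). At equal depth 3 of 9 and 9 of 11 cells held its reads. Its log2 fold of -2.26 was -3.37 without A8 and -1.86 without C12. Eif1ax, on the X chromosome, was found in 9 of 9 and 10 of 11 cells, and its group levels of 231 and 259 CPM gave a log2 fold of -0.16 that was 0.22 as a mean of log2 levels and 0.09 without D3. Eif5b, the GTPase of subunit joining, was 3.36-fold (95% CI 3.10 to 3.64) lower, and its log2 fold of -1.74 was -3.25 without B4, its highest CD150+CD48- cell. Eif1b, a paralog of eIF1, and Eif2a, an alternative initiator tRNA carrier, had log2 folds of 0.73 (0.16 without B12, 1.02 without D12) and 0.68 (0.13 without A10, 0.84 without A11). The direction of Eif1b was turned on reads per ERCC read, at -0.59, and that of Eif2a as a mean of log2 levels, at -0.29.

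All 5 subunits of eIF2B, the exchange factor that reloads eIF2 with GTP, were lower in the CD150+CD48- sort, as were 53.1% of all genes. Past the mark were 4 of the 5, against 27.1% of all genes, and the median of the 5 was -1.52. Together they took 0.0348% to 0.106% of gene reads in erythroid-rich cells, 0.000152% to 0.0381% among CD150+CD48- cells and 0.00207% to 0.0775% among the remaining CD150- cells. The lowest of the first range, in D4, was under the highest of the second, in B11. Eif2b1 (ENSMUSG00000029388, chromosome 5, 124570213 to 124579131), the alpha subunit that senses phosphorylated eIF2, had the lowest fold of all 61 genes.

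Eif2b1 had 0 to 67.1 CPM (median 1.34) in CD150+CD48- cells, the highest in B3, and 0 to 775 CPM (median 163) in CD150- cells. The erythroid-rich cells held 88.4 to 683 CPM, above every CD150+CD48- cell, and of the other CD150- cells D9 had 775, D12 5.52, D11 2.72 and D3 none. The group levels were 11.1 CPM (95% CI 8.59 to 14.1) against 221 CPM (95% CI 209.99 to 232), 19.9-fold (95% CI 15.5 to 25.8) lower, with a log2 fold of -4.19 that was -5.37 without B3 and -3.80 without D9. Eif2b3, of the catalytic part of the complex, was 9.87-fold (95% CI 5.92 to 17.6) lower with 16 thinned reads in 1 CD150+CD48- cell, B3, and reads in 6 of 11 CD150- cells. Without B3 its log2 fold of -2.90 was -4.79. Eif2b2, Eif2b5 and Eif2b4 had folds of -1.16, -1.52 and -0.49. Without A3, A8 and B11 in that order these were -2.48, -2.58 and -1.41, and without D8, C9 and C10 -0.79, -1.04 and -0.15, so that without D8 Eif2b2 was not past the mark.

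Of the 4 kinases of eIF2alpha, 3 had higher levels in the CD150+CD48- sort, all 3 past the mark, against 21.8% of all genes, and the median was 1.33 (0.41 on reads per ERCC read, 0.04 as a mean of log2 levels). For 2 of these a single cell held most of the reads. Eif2ak4 (ENSMUSG00000005102, chromosome 2, 118388618 to 118475234), which encodes GCN2, the sensor of amino acid shortage, had 0 to 789.9 CPM (median 298) in CD150+CD48- cells, with 789.9 in B12 and 667 in A3 at the top and none in A10 and A11. CD150- cells had 0 to 507 CPM (median 49.0). Reads were in 7 cells of each group at equal depth, with D9, D12 and C9 at 507, 317 and 271 CPM among CD150+CD48- cells, while D3, D5, D8 and D11 had none. The levels of 309 CPM (95% CI 295 to 324) against 118 CPM (95% CI 110.4 to 126) made it 2.62-fold (95% CI 2.41 to 2.84) higher, with a log2 fold of 1.38, 1.05 without B12, 1.88 without D9 and 0.30 per ERCC read.

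Eif2ak2, which encodes the double-stranded RNA sensor PKR, had 311 of its 324 thinned CD150+CD48- reads in B9, at 473 CPM of that cell, and its log2 fold of 1.48 turned to -2.52 without B9. It was 2.92 without D5, the cell with the most CD150- reads, and -0.34 as a mean of log2 levels. Eif2ak3, which encodes PERK of the endoplasmic reticulum, likewise had 44 of 60 reads in B9 and a fold of 1.28 that was -0.18 without it. Eif2ak1, the haem-regulated inhibitor known from red cell precursors, had 0 to 159 CPM (median 1.08) in CD150+CD48- cells and 0 to 140.2 CPM (median 4.77) in CD150- cells. In the erythroid-rich cells it had 1.00 to 140.2 CPM, and in D3, D9, D11 and D12 at most 0.649. The highest cell of all was B3, a CD150+CD48- cell, at 159, and the log2 fold of -0.44 was -2.97 without B3 and 0.16 without C10.

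**Figure D3:**
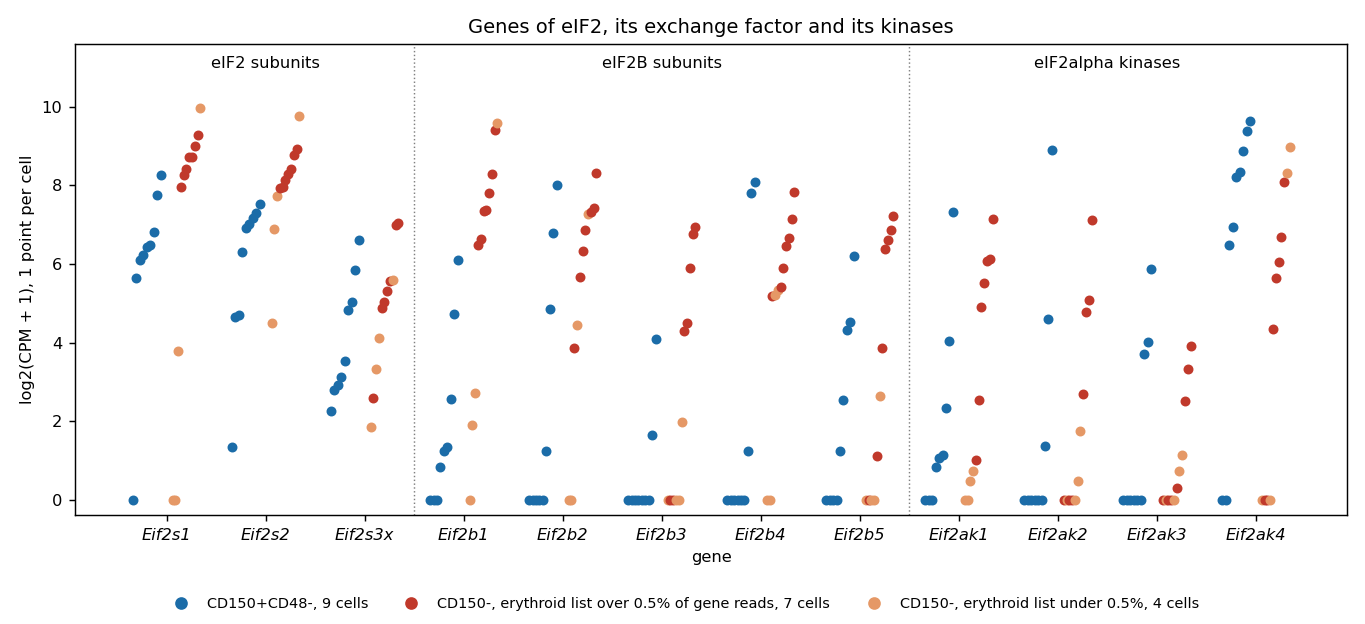
Level in each cell, as log2 of CPM + 1 with all gene reads, of the genes of eIF2, eIF2B and the eIF2alpha kinases, with 1 point per cell ordered by level within each group. Points at 0 are cells with no read; the erythroid-rich cells (red) of Eif2b1 lie between 88.4 and 683 CPM, above the 9 CD150+CD48- cells (blue), while for Eif2ak4 the highest point is the CD150+CD48- cell B12.

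The 13 subunits of eIF3 past the filter had log2 folds from -1.72 (Eif3j1) to 0.43 (Eif3k). Of them 9 were lower and 4 higher, 2 past the mark downward and none upward, the median was -0.55, and all 13 were below 0 per ERCC read. On that scale the median over all genes was itself -0.93, and how many of all genes lay below 0 was not counted. Eif3e, with the most reads, had 439 to 2569 CPM (median 1308) against 449.6 to 2730.03 CPM (median 1107), and its levels of 1221 and 1242 CPM gave a log2 fold of -0.02, from -0.23 without A11 to 0.17 without D3. Eif3a, the core scaffold, and Eif3i had folds of 0.02 and 0.01, and -1.10 and -1.55 per ERCC read. The 2 past the mark were Eif3b, the other core scaffold, at -1.19 (-1.74 without B9), and Eif3j1, the loosely bound subunit, at -1.72 (-2.45 without B9).

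As a sum the eIF3 genes took 0.647% to 0.951% of gene reads in erythroid-rich cells, 0.498% to 0.640% for the remaining CD150- cells and 0.419% to 0.846% for CD150+CD48- cells. The first 2 ranges did not overlap, and the third spanned most of both. Copies elsewhere in the genome make some of these levels uncertain: 50.9% of the 50-base stretches of Eif3j1 and 91.8% of those of its near copy Eif3j2 occur in other genes, as do 37.2% for Eif3d and 20.3% for Eif3h.

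The cap-binding paralogs had folds in both directions. Eif4e, the main cap-binding protein, had 0 to 1301 CPM (median 276) in CD150+CD48- and 0 to 800.5 CPM (median 338) in CD150- cells, with none in A10, A11, B4 and D9. Its log2 fold of 0.33 was -0.11 without B12, the highest cell, 0.54 without C12 and -1.48 per ERCC read. Eif4e2 (ENSMUSG00000026254, chromosome 1, 87213914 to 87240488), a homolog that represses translation of bound mRNAs, was lower by far more.

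It had 0 to 163 CPM (median 1.07) in CD150+CD48- cells, most of it in B11, and 0 to 459 CPM (median 136) in CD150- cells. The erythroid-rich cells held 56.3 to 459 CPM, D12 180.2 and D11 0.389, while D3 and D9 had none. At 19.7 CPM (95% CI 16.3 to 23.6) against 161 CPM (95% CI 152 to 170.2) Eif4e2 was 8.16-fold (95% CI 6.74 to 9.96) lower, with a log2 fold of -2.97, -5.20 without B11 and -2.63 without D5. Eif4e3 (ENSMUSG00000093661, chromosome 6, 99625135 to 99666771), the third cap-binding paralog, had the opposite pattern. It was read in A11 at 277 CPM, B11 at 101, A10 at 93.9, B12 at 12.2 and B9 at 0.269, and among CD150- cells in D12 at 132, D3 at 68.9 and D9 at 0.298. None of the 7 erythroid-rich cells had a read, which allows up to 0.122 CPM over their reads. Its 3.05-fold (95% CI 2.48 to 3.77) higher level rested on few cells, with log2 folds of 0.49 without A11 and 2.61 without D12 in place of 1.56, and 2.76 per ERCC read. Of its 327 thinned CD150+CD48- reads A11 held 191 and A10 62, and both cells had over 40% of their reads unaligned.

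Among the eIF4G scaffolds, Eif4g3 (ENSMUSG00000028760, chromosome 4, 137993022 to 138208508) was 3.89-fold (95% CI 3.46 to 4.38) higher, with reads in 8 of 9 and 10 of 11 cells at equal depth. CD150+CD48- cells had 0 to 729.6 CPM (median 126), with 729.6 in B3 and 606 in B12 far above the rest, and CD150- cells had 1.18 to 115 CPM (median 64.9). The log2 fold of 1.94 stayed between 1.46 (without B3) and 2.15 (without D8) and was 0.21 per ERCC read. Eif4g1, the scaffold of canonical eIF4F, went the other way at 0 to 174 CPM (median 86.4) against 1.79 to 243 CPM (median 59.1), a log2 fold of -0.55 (-0.85 without B9). Eif4g2, also known as DAP5, which lacks the cap-binding partner site and serves cap-independent initiation, had the most reads of this role. It had 115 to 1324 CPM (median 674) in CD150+CD48- cells, of which B3 alone exceeded the CD150- median, and 687 to 1725 CPM (median 1085) in CD150- cells, a log2 fold of -0.81 (-1.02 without B3).

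The helicase pair overlapped fully between the sorts. Eif4a1 had 7.58 to 533 CPM (median 233) and 64.4 to 433 CPM (median 284), and Eif4a2 193 to 1971 CPM (median 358) and 198 to 1815 CPM (median 601), CD150+CD48- cells first. Their log2 folds were -0.18 and -0.33, the second -0.90 without B12 and -0.08 without D3, the 2 cells richest in it. Per kilobase of exon, Eif4a2 had 118 CPM and Eif4a1 60.5 over all cells, and the latter may be undercounted, with 28.4% of its stretches found in other genes against 13.6%. Over the 11 genes of this role 4 were higher and 7 lower, 2 past the mark each way, with a median of -0.33. The 2 downward were Eif4e2 and Eif4a3, another Eif4a paralog. Eif4a3 had 0 to 529 CPM (median 10.6) in CD150+CD48- cells and 0 to 698 CPM (median 217) in CD150- cells.

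Both 4E-binding proteins read, which block eIF4E from joining eIF4G, were lower in the CD150+CD48- sort with all cells in. Eif4ebp1 (ENSMUSG00000031490, chromosome 8, 27260329 to 27276674) had 0 to 156 CPM (median 28.9) there, the highest in B9, and 6.49 to 450.3 CPM (median 295) in CD150- cells. The erythroid-rich cells had 169.9 to 406 CPM, above all 9 CD150+CD48- cells, and D9 reached 450.3, while D3, D11 and D12 lay among the other sort at 44.2, 38.9 and 6.49. The levels of 36.2 CPM (95% CI 31.5 to 41.4) against 246 CPM (95% CI 234 to 257) were 6.79-fold (95% CI 5.89 to 7.85) apart, with a log2 fold of -2.73 (-3.31 without B9, -2.56 without B3, -3.63 per ERCC read). Eif4ebp2 had 41 and 117 thinned reads, and its log2 fold of -1.11 was -2.88 without B11 and 0.02 without D5. Eif4ebp3 had no read in any cell, and Eif4enif1, a transporter that carries eIF4E to the nucleus, had a log2 fold of 0.16 (-0.92 without B12).

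The elongation factors held the most reads, with 0.460% to 1.79% of gene reads over CD150+CD48- cells and 0.822% to 1.82% over CD150- cells. Per kilobase of exon Eef1a1 was first of the 61 genes with 2634 CPM over all cells, before Eef1b2 (1035), Eif5a (446) and Eef1g (431), and Eif2ak3 was last with 1.08. Eef1a1 (ENSMUSG00000037742, chromosome 9, 78478449 to 78489151), the carrier of aminoacyl-tRNA, had 2460.1 to 12469 CPM (median 4238) in CD150+CD48- and 4119.9 to 13179.9 CPM (median 6607) in CD150- cells. The high cells were D8, B11 and B3, at 13179.9, 12469 and 12055 CPM, and the groups overlapped, with a log2 fold of -0.13 that was -0.32 without B11, 0.01 without D8 and 0.10 without A10, A11 and B4.

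Because 40.4% of its 50-base stretches occur in 21 other annotated genes, 18 of them pseudogenes, and 44.2% of those of Eef1g in 5, both may be undercounted. Eef1a2, the form of muscle and neurons, had 1 read in 1 cell. Eef2, which moves the ribosome along the mRNA, had 43.9 to 1382 CPM (median 529) against 413 to 1315 CPM (median 729); A10 and B3 were the low cells, at 43.9 and 142 CPM, and the log2 fold was -0.44. Of the 7 genes listed as elongation factors, Eef1e1 by its symbol, 6 were lower, 2 past the mark, with a median of -0.44. The 2 were Eef1d, an exchange factor subunit of eEF1, at -1.43, and Eefsec, which delivers selenocysteine tRNA.

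Eefsec (ENSMUSG00000033216, chromosome 6, 88257334 to 88446539) had 0 to 41.8 CPM (median 0) against 0 to 167 CPM (median 4.01) with reads at equal depth in 3 of 9 and 6 of 11. C12 and D4, at 167 and 159 CPM, were highest, and D3, D9, D11 and D12 had at most 0.325. It was 5.69-fold (95% CI 4.20 to 7.87) lower, with log2 folds of -3.69 without B11 and -1.92 without D4 in place of -2.37. Eif5a, the hypusine-bearing factor that helps ribosomes past stalling sequences, had 192 to 1849 CPM (median 760.4) against 104 to 1880.4 CPM (median 1425). The erythroid-rich cells held 1042 to 1880.4 CPM and D3, D9, D11 and D12 had 104 to 698, with no overlap between them, while CD150+CD48- cells spanned both and the log2 fold was -0.36. Its paralog Eif5a2 fell outside the rule, with 1941 reads in 1 cell. Eif6, which keeps the ribosomal subunits apart, had 1424 of its 1752 thinned CD150+CD48- reads in A10, and its fold of 0.66 was -1.57 without that cell and -0.04 per ERCC read.

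Among the enzymes that modify elongation factors, Eef1akmt2 (ENSMUSG00000030960, chromosome 7, 132827457 to 132852673), a lysine methyltransferase of eEF1A, had the highest fold of all 61 genes. Of the 4 such enzymes past the filter 2 were higher and 2 lower, 1 past the mark each way, with a median of 0.25 that was -0.46 per ERCC read. CD150+CD48- cells had 0 to 608 CPM (median 67.2), with 608 in A10, 384 in B3, 252 in A11 and 118 in A8, and none in A3 and B4. CD150- cells had 0 to 66.9 CPM (median 0.797), so that only D12, C9, D4 and C6 were above 1 CPM and none reached the 4 high cells of the other sort. The levels were 164 CPM (95% CI 154 to 175) against 16.5 CPM (95% CI 13.7 to 19.8), 9.92-fold (95% CI 8.20 to 12.1) higher, with a log2 fold of 3.23 that ranged from 2.64 without A10 to 3.81 without D12, and was 2.45 per ERCC read. Eef2k, the kinase that switches off eEF2, had 0 to 86.4 CPM (median 17.6) against 2.27 to 486 CPM (median 24.7), and D3 held 296 of its 501 thinned CD150- reads, so that its log2 fold of -1.27 was -1.68 without B3 and -0.15 without D3.

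**Figure D4:**
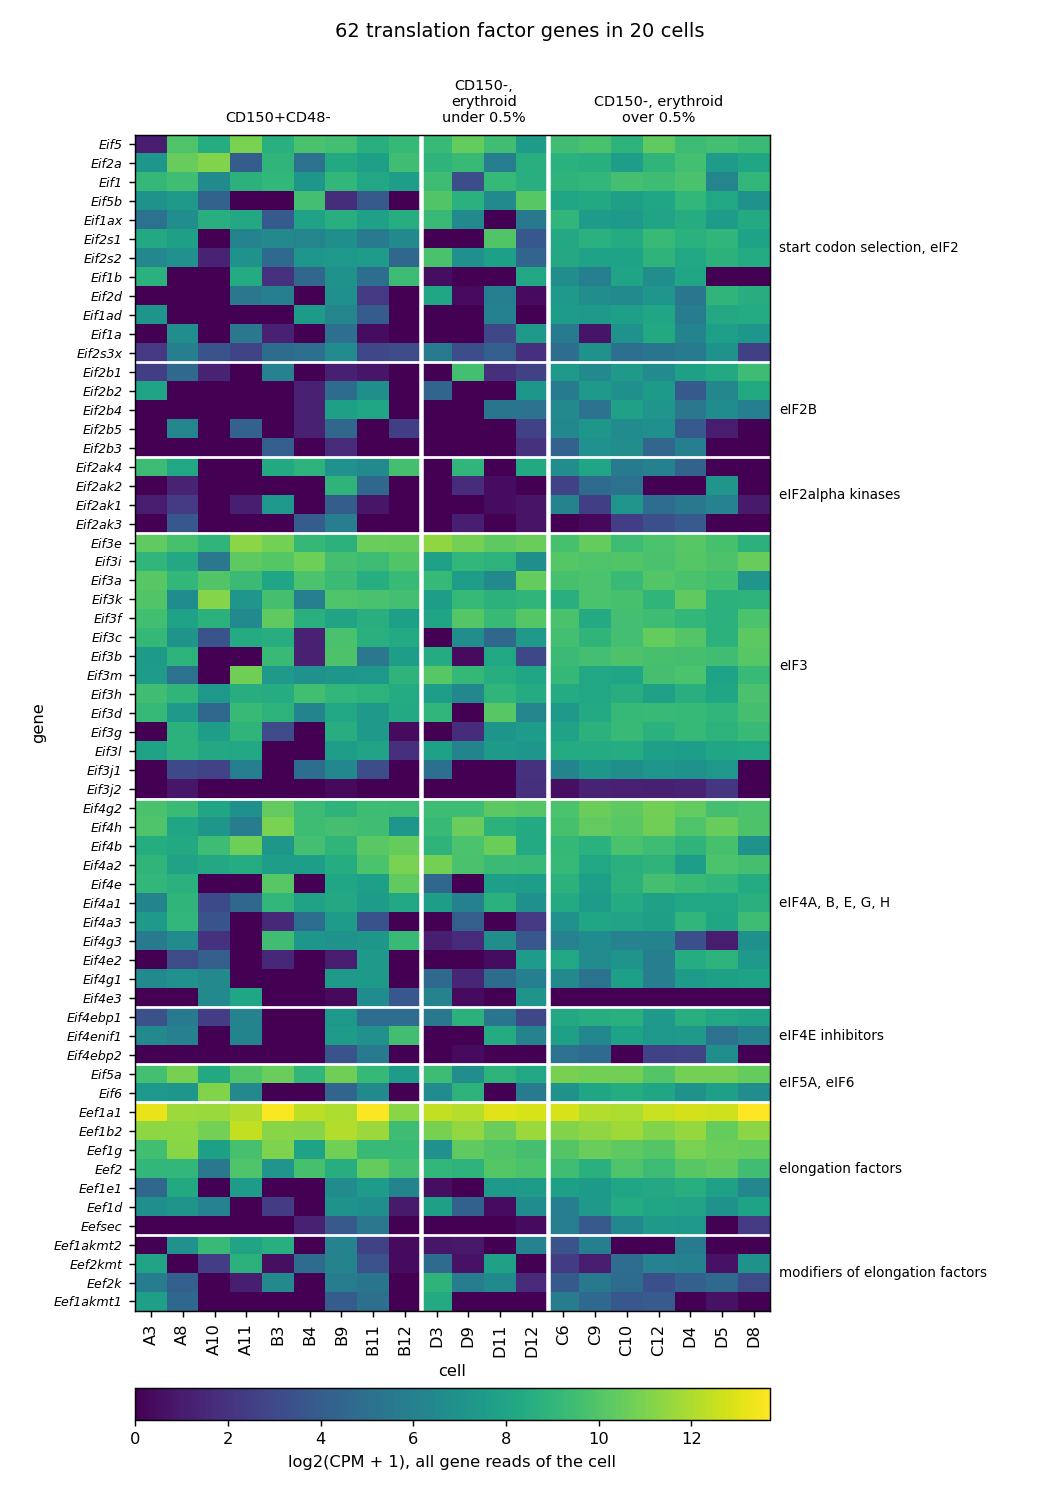
Level of the 62 genes in the 20 cells as log2 of CPM + 1, rows grouped by role and ordered by level, columns grouped into CD150+CD48- cells and CD150- cells with the erythroid list under or over 0.5% of gene reads. At equal depth 48 of 61 genes were read in every one of the 7 erythroid-rich cells. The count was 27 in every one of the 4 other CD150- cells and 24 in every one of the 9 CD150+CD48- cells. These groups differ in number of cells, and the same shares over all genes were not counted.

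Reads of the factors were spread unevenly over cells. At equal depth CD150+CD48- cells had reads of 38 to 58 of the 62 genes, most in B9 and B11, and CD150- cells of 37 to 61, most in C9. All genes detected followed, with 4767 to 8689 and 5443 to 8886. In 9 of the 61 genes a single cell held over 50% of the reads of the group with the higher level: Eif2ak2, Eif6, Eef1akmt1, Eif2ak3, Eif4ebp2, Eef2k, Eif4e3, Eif4enif1 and Eef2kmt. Without those cells the fold of Eef1akmt1 went from -0.24 to 1.55 (D3) and that of Eef2kmt from 0.74 to -0.21 (A11). Of the 9 genes, 5 were among the 25 past the mark. The same count over all genes was not made, so the uneven spread is not read as particular to the factors.

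Other genes of the pathway, taken as whole lists of names, lay on both sides. Of 22 cytosolic aminoacyl-tRNA synthetases and partners, which charge tRNAs, 21 were lower, 9 of them past the mark, with a median log2 fold of -0.79. They ran from Hars, for histidine, at 26.4 against 286 CPM and 10.8-fold (95% CI 9.19 to 12.8) lower, with a log2 fold of -3.39 (-4.15 without B9), to Aimp1, a scaffold of the synthetase complex, at a log2 fold of 0.62. Of 9 enzymes of hypusine and diphthamide, the modifications of eIF5A and eEF2, 7 were lower, 4 past the mark (median -0.93), from Dph3 at -3.66 (-5.03 without B11, -3.39 without D3) to Dph2 at 0.43 (-0.41 without B3, 1.17 without D8). Of 9 mitochondrial translation factors 6 were lower, 2 past the mark (median -0.48), from Gfm1 at -1.92 (-2.74 without B12, -1.47 without D5) to Mrrf at 0.86 (0.09 without A11, 1.32 without D3).

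Of 7 genes of poly(A)-binding proteins and partners, which link the mRNA tail to eIF4G, 4 were lower, 3 past the mark (median -0.83), from Paip2b at -3.42 (-4.63 without B11, -2.53 without D12) to Paip1 at 0.80 (-0.03 without A10, 1.32 without D9). Of 8 genes of termination and recycling 3 passed the mark each way (median -0.74), from Denr at -1.75 (-2.70 without A8, -1.50 without D5) to Gspt2, a paralog of the release factor eRF3, at 2.80 (1.46 without B4, 4.13 without D3). Of 10 targets of the integrated stress response, genes induced when eIF2alpha is phosphorylated, 8 were lower, 6 past the mark, and 1 higher past it (median -1.31). Vldlr stood at -3.41 (-6.23 without B11, -0.66 without D9), and Trib3 had 40 thinned reads in 3 CD150+CD48- cells and none in CD150- cells, at least 16.3-fold higher when those are set to 3 reads for the group.

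Of 26 genes of the mTORC1 pathway 14 were higher and 12 lower, 7 and 5 of them past the mark, with a median of 0.28 that turned to -0.49 per ERCC read and -0.74 as a mean of log2 levels. Castor1, an arginine sensor, was highest at 8.08 against 0.275 CPM, with 2 reads in CD150- cells and a ratio of 29.3-fold (95% CI 7.69 to 249), and Tsc2, a brake on mTORC1, lowest at -1.67 (-2.38 without A8, -0.77 without D8). The log2 fold of Castor1 was 2.83, and 1.91 without B11. The MYC family list holds MYC genes, which drive many translation genes, and also antagonists of MYC. Of its 6 genes past the filter 5 were higher, 2 past the mark, and 1 lower past it (median 0.56, -0.39 per ERCC read). Mxd1, an antagonist of MYC, was 11.7-fold (95% CI 6.26 to 24.1) higher and Mxi1, another, 2.86-fold (95% CI 2.45 to 3.36) lower. Their log2 folds were 2.89 (2.28 without A3, 3.29 without D4) and -1.49 (-2.38 without B9, -1.27 without D11). For these lists, and for the role groups above, the background is that of all genes past the filter. Of those, 21.8% passed the mark upward and 27.1% downward, and 53.1% were lower.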

How the data were processed

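The authors deposited gene counts per cell, made from Quartz-Seq reads with HTSeq and R 3.0.2 on GRCm38, per the submitters' processing notes. For the aligner and the annotation release the sources used here give nothing. HTSeq's 5 summary rows were left out of depth and levels. Symbols and positions came from GENCODE M21, which names 36639 of 38561 identifiers, and start windows from RefSeq. Each cell was thinned to 660007 gene reads with a fixed seed, summed per sort and scaled to CPM, and levels per cell used all its reads. Spike-in values divide gene reads by reads of 51 ERCC rows.

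Intervals are exact Poisson for CPM and exact binomial for ratios, at 95%, and cover counting error only, since the reads carry no molecular identifiers. No model was fitted across genes, because each sort counted as 1 sample. The calculation of folds was run on simulated counts with planted changes. There the median fold of the changed genes had to pass the mark in the planted direction. That does not check the fold of any single gene here.

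Members and lists were chosen with earlier results of these data known. Named were, per role, the gene with the most reads; up to 8 genes per direction with the largest folds past the mark whose sign stayed whichever cell was left out; sets of paralogs and partners; and the extremes of each other list. Any other gene named was chosen after its values were seen. Alternatives were another thinning, all reads, log2 means, ERCC scaling, another pseudocount, other filters, and leaving out single cells or, chosen after seeing the data, the 3 cells with over 40% unaligned reads.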

Additional observations from a re-analysis of the deposited data

Results flagged for a closer look

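In 3 of the 31 groups of CD150+CD48- cells checked, a single cell stood apart from the other 8 in log2(CPM + 1). The rule's nominal rate of about 1 in 20 groups by chance assumes normal values. Here many values are 0 and the groups share the same cells, so that rate does not hold and the 3 cannot be set against it. A3 had 1.06 for Eif5, the GTPase activator of eIF2, and the next lowest cell 8.45. A10 had 0 for Eif2s1, the alpha subunit of eIF2, and the next lowest cell 5.65. B3 had 4.08 for Eif2b3, a catalytic subunit of eIF2B, and the next highest cell 1.65.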

How the results depend on the processing

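The median log2 fold of the factors was -0.44 and kept its sign in every alternative run, at -0.95 as a mean of log2 levels, -1.66 on reads per ERCC read and -0.54 to -0.33 when single cells were left out. On reads per ERCC read 2 genes were past the mark upward and 43 downward, in place of 6 and 19, which were 4 (without B9) to 7 (without D3) and 16 (without B4) to 24 (without B9) with 1 cell left out. With 1 cell left out, the summed percent differed by -0.51 to -0.31 points, the log2 ratio per ERCC read was -1.57 to -1.26, and the mean share of the 62 genes that a cell had a read of, which differed by -10.5 points with all cells, by -13.0 to -8.96. Eif2ak2 was turned to -0.34 as a mean of log2 levels and ranged from -2.52 (without B9) to 2.92 (without D5), Eif2ak3 from -0.18 (without B9) to 1.70 (without D4), and Eif4ebp2 from -2.88 (without B11) to 0.0155 (without D5); the cause was not tested. Without A10, A11 and B4 the median was -0.31, with 5 genes past the mark upward and 17 downward. Depth limits the low genes, since 1 thinned read is 1.52 CPM of a cell. No paired analysis was possible, because each code is a single cell of 1 sort and no animal is named that would link cells. No test was made.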
